A study of Mus musculus with 33 samples.

Results

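The genes described here are 9 genes of the interferon response and of major histocompatibility complex (MHC) class I: Ifit1, Ifit3, Irf7, Irf9, Isg15, Oasl2, B2m, H2-K1 and H2-D1. They were chosen by symbol from the 23366 genes counted in frontal cortex of C57BL/6 mouse offspring, and each of the 9 was found once in the table of the females and once in that of the males. RNA-Seq had been run on 33 offspring of about 1 month of age. The pups had been exposed through their dams during gestation, and then with their dams during lactation, to whole-body inhalation. The air group breathed filtered air, the nicotine group the aerosol of tobacco-flavoured e-cigarette cartridges that held 13 to 16 mg/mL of nicotine, and the no-nicotine group the aerosol of cartridges of that flavour free of nicotine. There were 6 air, 5 nicotine and 5 no-nicotine libraries from females and 6 air, 6 nicotine and 5 no-nicotine libraries from males. All groups share the strain and the tissue, and the air group is the control of both exposures in its sex, so that the changes of both exposures rest on the same air libraries.

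Interferons are secreted when cells sense viral or misplaced nucleic acid. Type I interferons act through the receptor Ifnar1/Ifnar2 and interferon gamma through Ifngr1/Ifngr2; both use Jak kinases, and type I signalling also uses Stat2 and Irf9. The target genes include antiviral effectors and the machinery that loads peptides onto MHC class I, which neurons and glia keep low in the undisturbed brain.

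Total counts ran from 19150562 to 27513174 in the females and from 17845672 to 24787955 in the males. Levels are given as CPM, the counts of a gene for every 1000000 counts of its library, after scaling by the trimmed mean of M-values (TMM). The sexes were sequenced in separate runs, so that a difference in level between them and a difference between the runs cannot be told apart, and levels were compared within a sex. The library labelled male nicotine replicate 21 went against its label (Xist 215 CPM, Y-linked genes 0.0465 CPM in sum) and was kept as labelled. Values without it are given for some or all of the 9 genes in the comparisons of the male nicotine group. Most male values of other genes and gene lists are given only with it. Microglial markers were present in every library (summed level 996 to 1360 CPM), while the 8 lymphocyte markers summed to at most 0.496 CPM.

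The promoters of 6 of the 9 genes are shown, 4 of them for the core of the interferon-stimulated response element (ISRE), the DNA motif that Irf9 and the other interferon regulatory factors bind. Those of H2-K1 and H2-D1 are shown for other letters that they share. The ISRE core, read as GAAA, any 2 bases and again GAAA, was searched on both strands of RefSeq promoter windows (GRCm38.p6, 250 bases before to 50 after each start site), in which all 9 genes were matched. It was present in 4 of the 9 genes, Ifit1, Ifit3, Isg15 and B2m, and in 1131 of all 32851 promoter windows (3.44%). By gene, that is 44.4% of the 9 genes against 3.99% of 27025 genes. Each stretch below is written 5′ to 3′ on the strand of the gene, with the core or its reverse complement in capitals, and with its position from a match of the sequence to mm9, the build of the counts. The Ifit3 stretch occurred at 2 places on its chromosome, of which the one next to Ifit3 is given.
Isg15, chr4:155574959-155575030, minus strand: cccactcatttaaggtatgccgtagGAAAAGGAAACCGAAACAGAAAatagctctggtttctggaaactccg
Ifit1, chr19:34715250-34715328, plus strand: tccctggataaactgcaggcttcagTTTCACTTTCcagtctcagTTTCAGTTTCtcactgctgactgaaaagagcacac
Ifit3, chr19:34657838-34657931, plus strand: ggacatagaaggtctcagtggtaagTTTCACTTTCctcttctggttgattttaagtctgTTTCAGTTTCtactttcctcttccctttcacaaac
B2m, chr2:121973259-121973318, plus strand: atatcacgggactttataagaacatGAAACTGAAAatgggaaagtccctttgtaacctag

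Isg15 held 3 overlapping cores, Ifit1 and Ifit3 held 2 each on the opposite strand, and B2m held 1. The classical class I genes H2-K1 and H2-D1 had no exact core. Both carried instead the 9 letters TTTCACTTC, picked out after these promoters had been aligned, inside a run of 40 bases that is identical between them. The printed stretches differ at 1 of 59 bases. That of H2-D1 starts 189 bases inside the gene as annotated in mm9, since the RefSeq table places the start site further downstream. Those letters, searched on both strands, occurred in 166 of the 32851 windows (0.505%), and 5 of 25 further genes of the MHC class I pathway held them (H2-Q4, H2-Q6, H2-Q7, H2-Q10 and H2-M3). They are in capitals in the next pair.
H2-K1, chr17:34137349-34137407, minus strand: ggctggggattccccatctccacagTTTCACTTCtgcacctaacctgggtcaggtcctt
H2-D1, chr17:35399864-35399922, plus strand: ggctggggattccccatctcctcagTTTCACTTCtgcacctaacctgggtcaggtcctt

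Oasl2, Irf7 and Irf9 held neither run of letters in these windows. A match of letters is a description of the sequence and not of binding. Among the other listed pathway genes, 27 of 53 interferon-stimulated genes with a promoter window held the core (50.9%), as did 4 of 25 further genes of the MHC class I pathway (16%) and 0 of 7 MHC class II genes. So did 5 of 15 genes of interferons, their receptors and JAK-STAT signalling (33.3%) and 4 of 16 sensors and interferon regulatory factors (25%).

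In mm9, Ifit1 (chr19:34715361-34724499) and Ifit3 (chr19:34658021-34663221) lie on 1 chromosome. Isg15 is at chr4:155573533-155574927, Oasl2 at chr5:115346943-115362243, B2m at chr2:121973422-121978819, H2-K1 at chr17:34132962-34137278 and H2-D1 at chr17:35399675-35404444. Irf7 (chr7:148448605-148452380) overlaps Phrf1 on the opposite strand, B2m overlaps Patl2 on the opposite strand, and Irf9 (chr14:56222408-56228867) overlaps Rnf31 on its own strand. Whether counting used strand is not given in the sources used here, so reads of these pairs may not be separable. Near-identical copies limit 3 other genes more. Of the windows of 50 bases in the longest Ifit3 transcript, 82.4% matched I830012O16Rik (Ifit3b) with at most 2 mismatches, the number the mapping allowed. Of those of H2-K1 and H2-D1, 41.1% and 40.2% matched other genes, H2-Q4 sharing the most (27.8% and 20.2%). The share was 11.3% in Ifit1 and at most 3.37% in the remaining 5 genes.

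B2m, the light chain that every MHC class I molecule needs, was by far the most abundant of the 9. Its mean level in air-exposed animals was 166 CPM per kilobase of annotated exon in females and 144 in males. H2-K1 and H2-D1, the class I heavy chains, followed with 8.86 and 3.72 CPM per kilobase in the female air group and 8.13 and 3.7 in the male one. The 6 interferon response genes lay between 1.15 (Ifit3) and 2.97 (Isg15) CPM per kilobase in the female air group, and between 0.932 (Ifit3) and 2.47 (Irf9) in the male one. With at least 17 reads of each gene in every library, all 9 passed the filter on low counts in both sexes.

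**Figure D1:**
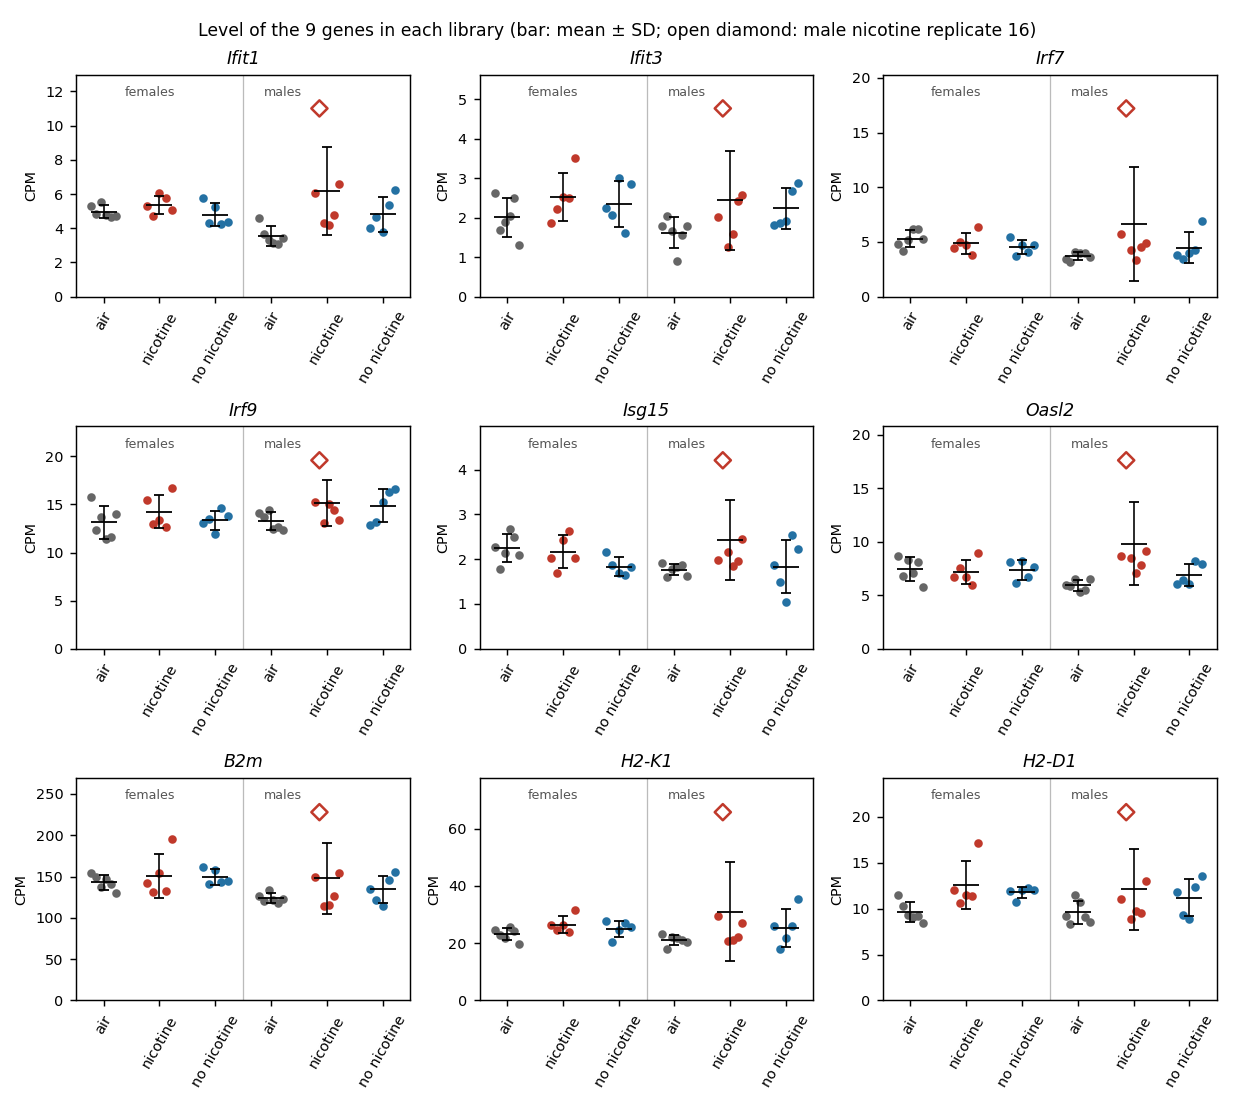
Level of each of the 9 genes in CPM (vertical axis, from 0) in every library of the 6 groups (horizontal axis; grey air, red nicotine, blue no nicotine), with the mean and SD as bars. The open diamond is male nicotine replicate 16, the highest male library in all 9 panels, for instance 17.2 CPM of Irf7 against at most 6.96 CPM in the other males.

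The first question was whether aerosol with nicotine changed these genes in males. None of the 9 genes passed an adjusted p of 0.01 in edgeR's quasi-likelihood test with Benjamini-Hochberg adjustment, and none of all 15293 genes tested did (0%). At an unadjusted p of 0.05, 6 of the 9 passed (Ifit1, Ifit3, Irf7, Isg15, Oasl2 and H2-K1), beside 14.4% of all genes. All 9 had a positive log2 fold change, with a median of 0.55, against a median of 0.006 over all genes. DESeq2 called 1 of the 9, Oasl2, beside 1.04% of all genes, and limma-voom called 0, beside 0%.

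Oasl2, a 2′-5′-oligoadenylate synthetase-like antiviral protein, separated the nicotine from the air group. Its level was 5.9, 5.82, 6.54, 5.25, 5.44 and 6.53 CPM in the 6 male air libraries (replicates 30, 31, 33, 37, 38 and 39) and 8.7, 17.6, 8.5, 7.02, 7.86 and 9.09 CPM in the 6 nicotine libraries (replicates 15, 16, 17, 19, 21 and 22). All 6 nicotine libraries lay above the highest air library, and replicate 16 stood far above the other 5. No other member had groups that did not overlap in this comparison, whereas 0.804% of all genes tested were higher in this way. The log2 fold change was 0.72 ± 0.18 (SE), with an adjusted p of 0.075 in edgeR and of 0.00653 in DESeq2. Without replicate 16 it was 0.48 ± 0.099 (edgeR adjusted p = 0.042), and without replicate 21 it was 0.78 ± 0.18 (edgeR adjusted p = 0.0952).

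Ifit1, which binds viral RNA that lacks host cap methylation, was 4.6, 3.69, 3.34, 3.11, 3.06 and 3.41 CPM in male air replicates 30, 31, 33, 37, 38 and 39 and 6.08, 11, 4.33, 4.2, 4.79 and 6.6 CPM in nicotine replicates 15, 16, 17, 19, 21 and 22. Of the 6 nicotine libraries, 4 exceeded the highest air library. The log2 fold change was 0.79 ± 0.21 (edgeR adjusted p = 0.0885) and 0.56 ± 0.16 without replicate 16 (edgeR adjusted p = 0.108). Ifit3, which works together with Ifit1, ran from 0.91 to 2.04 CPM (median 1.72) in air and from 1.25 to 4.77 CPM (median 2.22) in nicotine libraries, with 3 of 6 above the highest air library. Its log2 fold change was 0.57 ± 0.26 (edgeR adjusted p = 0.33) and fell to 0.28 ± 0.21 without replicate 16.

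Irf7, the factor that amplifies type I interferon production, showed how much 1 library weighed. It was 3.42, 3.16, 4.1, 3.96, 4.03 and 3.6 CPM in the male air replicates in the same order, and 5.76, 17.2, 4.23, 3.33, 4.51 and 4.91 CPM in the nicotine replicates. Replicate 16 stood far above the others, and replicate 19 fell inside the air range. The nicotine mean was 6.65 ± 5.21 CPM (SD, n = 6) against 3.71 ± 0.382 CPM (SD, n = 6) in air. The log2 fold change of 0.83 ± 0.32 (edgeR adjusted p = 0.237) dropped to 0.30 ± 0.17 without replicate 16.

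Isg15, the ubiquitin-like modifier, ran from 1.6 to 1.91 CPM (median 1.8) in male air libraries and from 1.85 to 4.21 CPM (median 2.07) in nicotine libraries, 5 of 6 of them above the highest air library. Its log2 fold change was 0.45 ± 0.21 (edgeR adjusted p = 0.338), and 0.24 ± 0.17 without replicate 16. Irf9, the DNA-binding part of the type I interferon complex, differed least with all libraries, with means of 13.3 ± 0.905 CPM in air and 15.1 ± 2.34 CPM in nicotine libraries (SD, n = 6 each) and a log2 fold change of 0.18 ± 0.091 (edgeR adjusted p = 0.369). Without replicate 16 that of Irf9 was 0.099 ± 0.076, and that of B2m was the smallest (0.091).

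The class I genes showed the same single high library. H2-K1 was 23.3, 18.1, 22.1, 21.9, 21.3 and 20.5 CPM in the male air replicates and 29.6, 65.8, 20.7, 21.1, 22.3 and 27 CPM in the nicotine replicates, in the order given above. Replicate 16 lay at more than 2 times the next library, and 3 of the 6 nicotine libraries fell inside the air range. The log2 fold change was 0.55 ± 0.24 (edgeR adjusted p = 0.297) and 0.19 ± 0.14 without replicate 16. The means in air and nicotine libraries were 124 ± 5.49 and 148 ± 42.7 CPM for B2m, and 9.58 ± 1.23 and 12.1 ± 4.36 CPM for H2-D1 (SD, n = 6 each). Their log2 fold changes of 0.25 and 0.34 became 0.091 and 0.13 without replicate 16.

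Without replicate 21 the log2 fold changes of the other 8 genes were 0.86 (Ifit1), 0.57 (Ifit3), 0.92 (Irf7), 0.20 (Irf9), 0.51 (Isg15), 0.30 (B2m), 0.63 (H2-K1) and 0.40 (H2-D1), none of them called. Over the 9 genes, the median log2 fold change in this comparison was 0.24 without replicate 16 and 0.57 without replicate 21. The number at an unadjusted p of 0.05 was then 2 and 7 of 9 (14.1% and 13.1% of all genes), with all 9 still positive. In this comparison edgeR called 0% of all genes, so a count of called markers could not show a stable make-up. At an unadjusted p of 0.05, 0 of 12 microglial and 1 of 12 endothelial markers passed, against 14.4% of all genes. The summed microglial level was 999 to 1220 CPM in nicotine and 1050 to 1190 CPM in air libraries. Cortical glutamatergic neuron markers had a median log2 fold change of -0.39 (9 of 10 at an unadjusted p of 0.05, 0 called), and the part of these shifts in tissue make-up in the result was not tested. In such bulk samples, fewer cells of a type and less RNA per cell cannot be told apart.

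**Figure D2:**
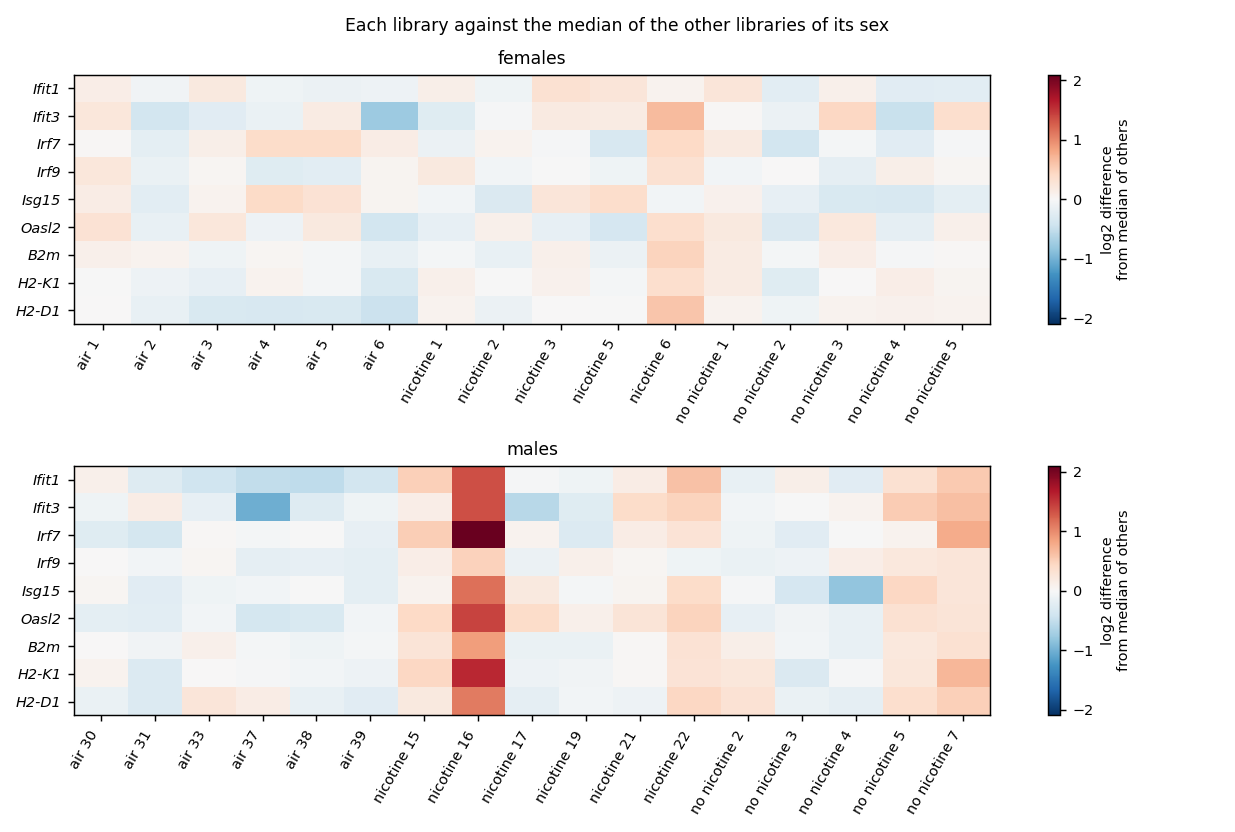
Log2 difference of each library (columns) from the median of the other libraries of its sex for each of the 9 genes (rows), red higher and blue lower. Male nicotine replicate 16 is red in all 9 rows, from 0.49 (Irf9) to 2.08 (Irf7). Female nicotine replicate 6 has a median of 0.36 and male no-nicotine replicate 7 one of 0.51.

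Male nicotine replicate 16 was examined by itself. It was the highest of the 17 male libraries for all 9 genes, while it was the highest for 4.47% of all genes tested. Set against the median of the other 16 males, Irf7 was 4.22-fold higher, H2-K1 2.99-fold, Oasl2 2.68-fold, Ifit1 2.56-fold, Ifit3 2.55-fold, Isg15 2.23-fold, H2-D1 2.13-fold, B2m 1.83-fold and Irf9 1.4-fold. These are values of 1 animal and have no replicate. The library had the lowest total of the males, 17845672 counts, and its median log2 difference over all genes was -0.002.

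The same library was the highest male one for 41 of 57 other interferon-stimulated genes and for 65 of all 125 other pathway genes tested. When 13855 genes with a mean of at least 1 CPM were ranked by their log2 difference in it, the first 50 held 7 of the 9 members (all but Irf9 and B2m) and 29 other listed pathway genes. In each of the other 32 libraries the first 50 held 0 members and 0 to 3 pathway genes. The genes named next were chosen after their ranks were seen. Gm12250 ranked highest, with 11.9 CPM against at most 1.42 CPM in the other males. Among the next were 6 GTPases of the interferon-stimulated list. Gbp4 was 26 CPM against at most 2.72 CPM in the other males, Igtp 71 against at most 8, Iigp1 31.5 against at most 3.5, Ifi47 25.1 against at most 4.5, Gbp2 46.4 against at most 7.72 and Irgm2 69 against at most 15.7 CPM.

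Some genes of antigen presentation, also chosen after their ranks were seen, stood high there too. Tap1, the peptide transporter, was 20.9 CPM against at most 7.68 CPM in the other males, the immunoproteasome subunits Psmb8 and Psmb9 were 13.8 and 6.62 against at most 5.6 and 2.79 CPM, and H2-Q4 was 8.3 against at most 2.94 CPM, although its reads may come from near-identical class I genes. The MHC class II genes H2-Aa and H2-Ab1 reached 7.29 and 4.88 against at most 5.07 and 3.06 CPM. Cd274, the gene of PD-L1, was 14.6 CPM against at most 3.3 CPM; it was on no list.

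The listed interferon transcripts were not detected in that library, and other interferon genes were not examined. Ifnb1, Ifna1, Ifna2, Ifna4 and Ifng each had 0 counts, which allows up to 3 counts or 0.168 CPM each (counting error only), and their highest count in any of the 33 libraries was 1. The receptor genes were present in it, with 1345 counts of Ifnar1, 463 of Ifnar2, 452 of Ifngr1 and 1046 of Ifngr2. The 8 lymphocyte markers had 8 counts in sum, against 1 to 8 counts in the other males. As a level this was 0.449 CPM, the highest of the male nicotine group, against at most 0.336 CPM in air and 0.304 CPM in no-nicotine libraries. The summed levels of the 10 other marker lists, microglia (1070 CPM) and endothelium (701 CPM) among them, all lay within the range of the other 16 male libraries. Ly6a, an endothelial marker that interferon also induces, was 44.7 CPM against at most 25.6 CPM.

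**Figure D3:**
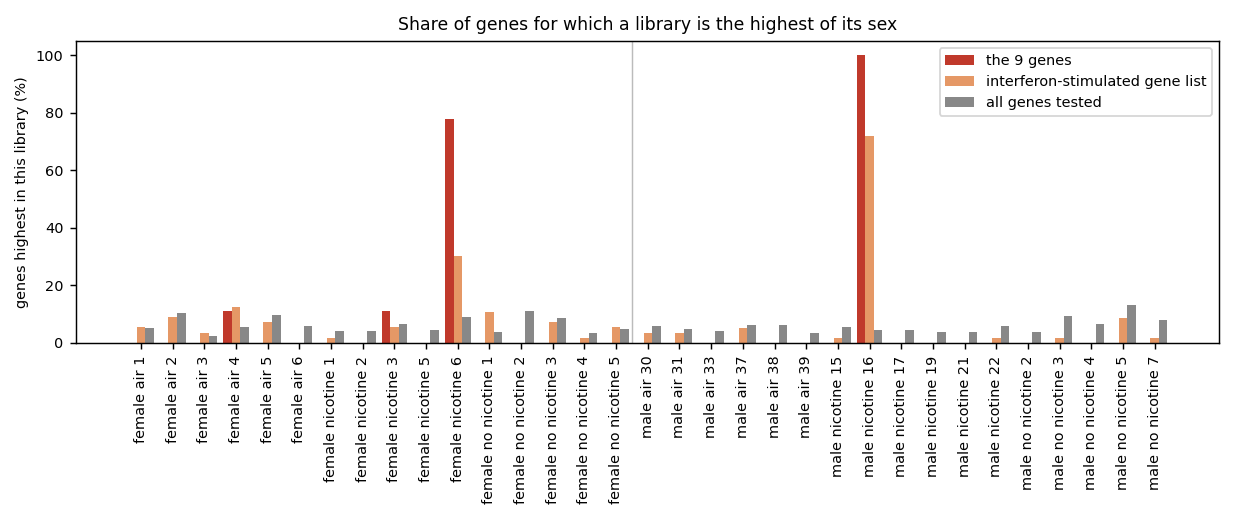
Percent of genes (vertical axis) for which a library (horizontal axis) was the highest of its sex, for the 9 genes (red), the other interferon-stimulated genes (orange) and all genes tested (grey). Male nicotine replicate 16 was highest for 9 of 9, 41 of 57 and 4.47%, and female nicotine replicate 6 for 7 of 9, 17 of 56 and 9.05%.

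The second question was whether aerosol without nicotine changed the 9 genes in males. None was called by edgeR, DESeq2 or limma-voom, against 13.6% of all genes by edgeR, and 0 of 9 passed an unadjusted p of 0.05, against 36%. With male nicotine replicate 16 left out of the shared fit, 4 of 9 passed it, against 35.7%, and 0 were called. All 9 log2 fold changes were positive, from 0.033 (Isg15) to 0.44 (Ifit3), with a median of 0.22 against 0.016 over all genes. Ifit1 was 4, 4.65, 3.78, 5.37 and 6.25 CPM in replicates 2, 3, 4, 5 and 7, with 3 of 5 above the highest air library (log2 fold change 0.43 ± 0.22, edgeR adjusted p = 0.162). Replicate 7 was the highest of its group for 7 of the 9 genes, with 6.96 CPM of Irf7 against 3.43 to 4.25 CPM in the other 4 libraries and 35.6 CPM of H2-K1 against 17.9 to 26 CPM. That library also had 946 CPM of choroid plexus markers in sum, against 13.5 to 52.1 CPM in the other males, and the part of this in the values was not tested. Without it the log2 fold change of Irf7 was 0.065 and that of H2-K1 was 0.11, Isg15 turned to -0.051, and the median over the 9 genes was 0.12. In this comparison 8 of 8 myelin markers were called higher (median log2 fold change 0.72) and 9 of 10 cortical glutamatergic neuron markers lower (median -0.91), striatal projection neuron markers had a median of 0.74 (2 of 8 called), and 0 of 12 microglial markers were called. The part of these shifts in the result was not tested.

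Between the male exposures, nicotine against no nicotine, 0 of 9 genes were called by edgeR, DESeq2 or limma-voom (0.248% of all genes by edgeR). Only Oasl2 passed an unadjusted p of 0.05 (20.1% of all genes). Oasl2 was 6, 6.43, 6.08, 8.15 and 7.91 CPM in the no-nicotine replicates 2, 3, 4, 5 and 7, so that 4 of the 6 nicotine libraries listed above were higher than all of them. Its log2 fold change was 0.50 ± 0.18 (edgeR adjusted p = 0.128), 0.26 ± 0.10 without nicotine replicate 16 (edgeR adjusted p = 0.21) and 0.56 ± 0.19 without nicotine replicate 21 (edgeR adjusted p = 0.129). All 9 fold changes were positive (median 0.29), but without nicotine replicate 16 only 4 of 9 were (median -0.024). Without nicotine replicate 21 all 9 were (median 0.37), and without no-nicotine replicate 7 the median was 0.44.

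**Figure D4:**
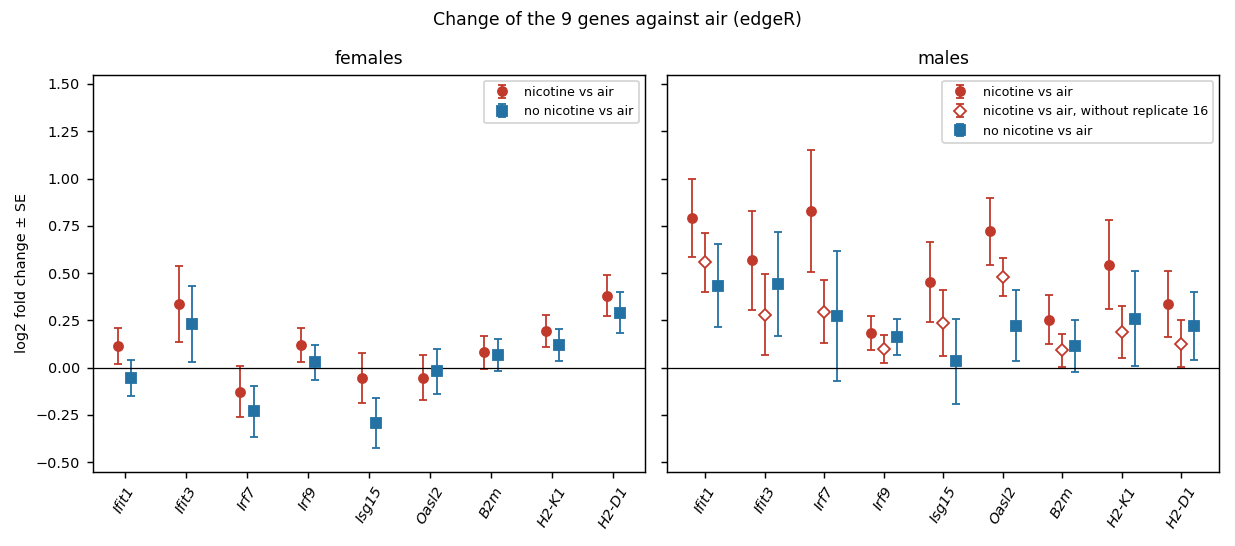
Log2 fold change against air with its SE (vertical axis) of the 9 genes (horizontal axis) in females (left) and males (right), for nicotine (red), no nicotine (blue) and, in males, nicotine without replicate 16 (open diamonds). In males all points lie above 0, and 8 of the 9 nicotine values exceed 0.2 with all libraries but 5 of 9 without replicate 16.

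In females the question of aerosol with nicotine gave no called member either (0 of 9 by edgeR, DESeq2 and limma-voom, against 4.29% of all genes by edgeR). At an unadjusted p of 0.05, 2 of 9 passed, H2-K1 and H2-D1, against 28.1% of all genes. H2-D1, a class I heavy chain, was 11.5, 10.3, 9.25, 9.06, 9.24 and 8.38 CPM in air replicates 1 to 6 and 12, 10.6, 11.5, 11.4 and 17.1 CPM in nicotine replicates 1, 2, 3, 5 and 6. All 5 nicotine libraries exceeded the median air library and 2 exceeded the highest, and replicate 6 stood apart from the other 4. This gave a log2 fold change of 0.38 ± 0.11 (edgeR adjusted p = 0.0292), the smallest edgeR adjusted p of any member in any comparison with all libraries, and 0.24 ± 0.080 without replicate 6 (edgeR adjusted p = 0.0756). H2-K1 had a mean of 23.1 ± 2.13 CPM in the 6 air and of 26.5 ± 2.98 CPM in the 5 nicotine libraries (SD), and its log2 fold change was 0.20 ± 0.085 (edgeR adjusted p = 0.139).

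The interferon response genes had values of both signs in these females. The log2 fold changes were 0.34 for Ifit3, 0.12 each for Ifit1 and Irf9, -0.13 for Irf7, -0.054 for Isg15 and -0.053 for Oasl2, and that of B2m was 0.081. Ifit3 ran from 1.31 to 2.63 CPM (median 1.96) in air and was 1.87, 2.21, 2.52, 2.5 and 3.52 CPM in the nicotine replicates. Irf7 ran from 4.15 to 6.23 CPM (median 5.23) in air and was 4.42, 4.99, 4.72, 3.82 and 6.39 CPM in the nicotine replicates. Female nicotine replicate 6 was the highest of the 16 females for 7 of the 9 genes (all but Ifit1 and Isg15) and for 9.05% of all genes. Its levels were 1.24-fold (Irf9) to 1.58-fold (Ifit3) over the median of the others in those 7. Without it the log2 fold change was 0.18 for Ifit3, 0.14 for Ifit1, 0.056 for Irf9, -0.25 for Irf7, -0.028 for Isg15, -0.15 for Oasl2, -0.031 for B2m and 0.13 for H2-K1, and the median over the 9 genes went from 0.12 to 0.056.

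Aerosol without nicotine in females likewise gave 0 of 9 called members by edgeR, DESeq2 and limma-voom, against 12.1% of all genes by edgeR. At an unadjusted p of 0.05, 2 of 9 passed, H2-D1 higher and Isg15 lower, against 36.4% of all genes. H2-D1 was 11.9, 10.7, 12, 12.2 and 12 CPM in the 5 libraries, 4 of them above the highest air library, with a log2 fold change of 0.29 ± 0.11 (edgeR adjusted p = 0.0583). Isg15 was 2.16, 1.86, 1.68, 1.65 and 1.82 CPM there and ran from 1.79 to 2.68 CPM (median 2.2) in air, with a log2 fold change of -0.29 ± 0.13 (edgeR adjusted p = 0.119). The median over the 9 genes was 0.028 and 5 were positive. Beside both female results, 8 of 8 myelin markers were called higher with each aerosol, 9 of 10 cortical glutamatergic neuron markers were called lower without nicotine (with nicotine 0 were called and 10 of 10 had an unadjusted p below 0.05), while 0 of 12 microglial markers were called. Striatal projection neuron markers had a median log2 fold change of 0.78 with nicotine (3 of 8 called higher) and 0.47 without (1 of 8 called higher). The part of these shifts in the values of H2-D1 was not tested.

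Between the female exposures 0 of 9 genes were called by edgeR, DESeq2 or limma-voom, as were 0% of all genes by edgeR. At an unadjusted p of 0.05, 0 of 9 passed, against 8.36% of all genes. The log2 fold changes of nicotine against no nicotine ran from -0.035 (Oasl2) to 0.24 (Isg15), with a median of 0.092 (-0.014 without nicotine replicate 6).

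Whether the change against air differed between the sexes was tested with an interaction term over all 33 libraries. None of the 9 genes passed an adjusted p of 0.01 for either aerosol by edgeR or DESeq2 (0% of all genes by edgeR). For nicotine, Oasl2 had a male minus female log2 difference of 0.77 ± 0.23 (edgeR adjusted p = 0.483), Ifit1 of 0.67 ± 0.24 (edgeR adjusted p = 0.612) and Irf7 of 0.95 ± 0.38 (edgeR adjusted p = 0.71). Without male nicotine replicate 16 these differences were 0.52, 0.43 and 0.41, and without male nicotine replicate 21 they were 0.82, 0.73 and 1.03, with 0 members called in either case. These 3 were the members with an unadjusted p below 0.05 for nicotine, and 6.47% of all genes had one. For the aerosol without nicotine there was no such member, against 4.91% of all genes. With male nicotine replicate 16 left out of the shared fit, Ifit1 and Irf7 had one (edgeR unadjusted p = 0.0144 and 0.031, adjusted p = 0.953 each).

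As a description over libraries that share a run, Pearson's r of log2 CPM between pairs of the 9 genes ran from 0.551 (Irf9 with Isg15) to 0.959 (Irf7 with H2-K1) over the 17 male libraries, with a median of 0.804. Without replicate 16 the range was 0.155 to 0.871 and the median 0.577, with all 36 pairs above 0. Without replicate 21 the range was 0.551 to 0.962 and the median 0.81. Over the 16 female libraries it ran from -0.282 (Isg15 with H2-D1) to 0.783 (H2-K1 with H2-D1), with a median of 0.284 and 30 of 36 pairs above 0. Without female nicotine replicate 6 the range was -0.548 to 0.653 and the median 0.163, with 27 of 36 pairs above 0.

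The genes most like the mean of the 9 in males, over 17 libraries and 13846 genes, were Bst2 (r = 0.941), which tethers budding virus to the cell, Psmb8 (0.94), Gbp3 (0.928), Ifi47 (0.927) and Samhd1 (0.92), a nucleotide hydrolase that limits retroviruses. These values include nicotine replicate 16, in which Bst2, Psmb8, Gbp3 and Ifi47 were among the first 50 genes by log2 difference. The likeness without that library was not tested. In females, over 16 libraries and 13760 genes, they were Lgals3bp (r = 0.831), Gpr4 (0.82), Cd52 (0.798) and Myh9 (0.766). None of the genes named here for 1 sex was among those named for the other.

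The rest of the pathway was taken from 5 lists of 154 genes, of which 123 were tested in females and 125 in males. With nicotine in males 0 of 125 were called by edgeR, DESeq2 or limma-voom, but 38 had an unadjusted p below 0.05 (14.4% of all genes did), and the median log2 fold change was 0.15. The interferon-stimulated list had 49 of 57 positive values and a median of 0.27, and the MHC class I pathway list 21 of 26 and 0.17. Without replicate 16 these became 41 of 56 with a median of 0.10, and 21 of 26 with a median of 0.14, and 17 of 123 pathway genes had an unadjusted p below 0.05 (13.8%, against 14.1% of all genes).

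**Figure D5:**
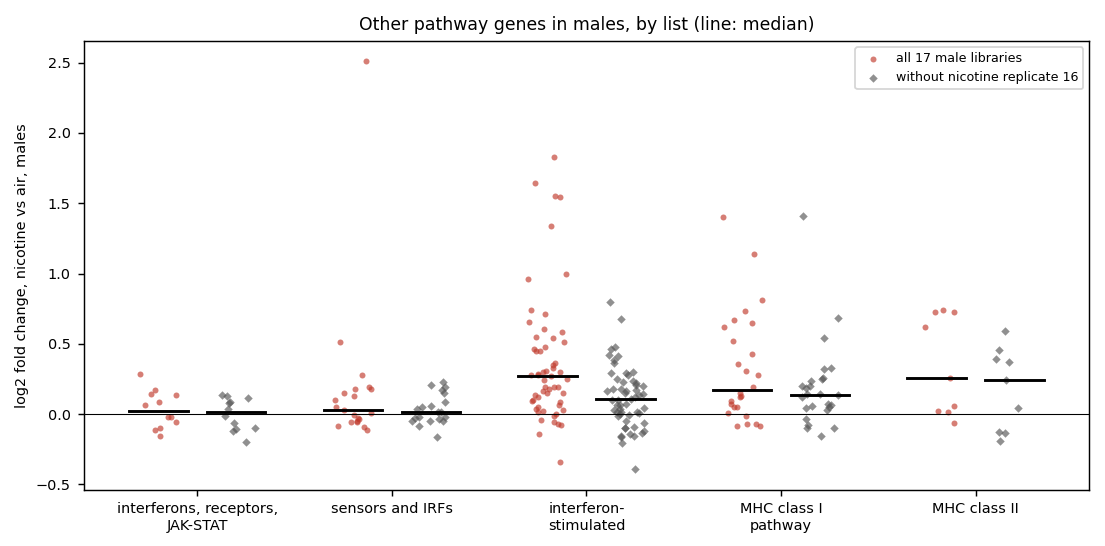
Log2 fold change of nicotine against air in males (vertical axis) for each tested gene of the 5 pathway lists (horizontal axis), with all 17 libraries (red) and without nicotine replicate 16 (grey); lines are medians. The median of the interferon-stimulated list is 0.27 with and 0.10 without that library.

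The genes of the lists that were called did not include the antiviral effectors above. With aerosol without nicotine in males, 4 of 125 rose and 2 fell, beside 6.15% and 7.47% of all genes. The ones that rose were Mavs, the adaptor of the RNA sensors (0.44 ± 0.076, edgeR adjusted p = 0.000472), Mr1, an MHC-related molecule that presents vitamin B metabolites (0.42 ± 0.079, edgeR adjusted p = 0.000807), Rfx5, a factor of MHC promoters (0.24 ± 0.051, edgeR adjusted p = 0.0024), and H2-Q2 (1.59 ± 0.37, edgeR adjusted p = 0.00413). H2-Q2 stood at only 1.03 ± 0.204 CPM and shares windows with H2-K1 and H2-D1, so that its value is uncertain. Those that fell were the kinase Jak1 (-0.21 ± 0.036, edgeR adjusted p = 0.000372) and the receptor chain Ifngr2 (-0.22 ± 0.048, edgeR adjusted p = 0.00254).

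With the same aerosol in females, 3 of 123 rose and 3 fell, beside 5.03% and 7.03% of all genes. Cd74, the MHC class II invariant chain, had a mean of 5.7 ± 0.827 CPM in the 6 air and of 9.85 ± 2.38 CPM in the 5 no-nicotine libraries (SD), and its log2 fold change was 0.79 ± 0.16 (edgeR adjusted p = 0.00212). Mr1 (0.43 ± 0.095, edgeR adjusted p = 0.00423) and Rfx5 (0.28 ± 0.071, edgeR adjusted p = 0.00945) rose, and Jak1 (-0.25 ± 0.044, edgeR adjusted p = 0.00119), Herc6, the mouse ligase for Isg15 (-0.52 ± 0.088, edgeR adjusted p = 0.00106), and Znfx1 (-0.29 ± 0.069, edgeR adjusted p = 0.00666) fell. With nicotine in females Herc6 (-0.44 ± 0.089, edgeR adjusted p = 0.00517) and Shisa5 (-0.20 ± 0.044, edgeR adjusted p = 0.00824) fell and 0 rose, beside 2.32% and 1.98% of all genes. In both comparisons between the exposures 0 list genes were called by edgeR or limma-voom (by edgeR 0% of all genes in females and 0.248% in males). At an unadjusted p of 0.05 by edgeR, 4 of 123 passed in females and 27 of 125 in males, beside 8.36% and 20.1% of all genes. The male count includes nicotine replicate 16. DESeq2 called 0 in females and 2 of 125 in males (H2-Eb1 and Ifnar1), beside 0% and 2.98% of all genes.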

How the data were processed

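RNA-Seq of frontal cortex was analysed in 33 offspring, 1 pup per litter. The authors deposited 1 table of raw read counts per sex, made from single 50-base reads that were demultiplexed with bcl2fastq, mapped to the mm9 transcriptome with Bowtie, freed of duplicates with SAMtools and counted with HTSeq; strand and multi-mapping settings are not given in the sources used here. Removing duplicates can lower the counts of abundant genes. Of the count columns, 1 matched no labelled sample and was not used, and neither were the normalized tables. The study left out 1 sample per sex as an outlier.

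Genes with a CPM sum of at least 5 over the libraries of a sex were kept (15158 in females, 15293 in males). TMM-normalised counts were tested by quasi-likelihood in edgeR 4.0.16 (R 4.3.3), with the 3 groups of a sex in 1 fit and no covariates, and p-values were adjusted over all genes tested with a threshold of 0.01. Sex differences came from 1 fit of 6 groups over 15105 genes. Log2 CPM used a prior count of 1. Replicates of a group differed by more than sampling noise in all 75 pairs. Alternatives used DESeq2 1.42.0, limma 3.58.1 (voom with quality weights), other scalings and filters, 2-group fits, leaving out each library, and the replicate number as a block. Intervals and floors cover counting error only.

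The members and lists were chosen with earlier results of these data known. Named were every member, up to 3 called genes with the smallest p of each pathway list in each comparison with air, and the 5 genes most correlated with the mean of the members in each sex among genes with a mean of at least 1 CPM; results of some genes are not reported here. Python 3.11.15, pandas 2.3.3, numpy 2.4.6 and matplotlib 3.10.9 were used for the rest.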

Additional observations from a re-analysis of the deposited data

Results flagged for a closer look

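In 54 groups of 5 or 6 libraries, 1 for each of the 9 genes in each of 6 groups, the highest and lowest library were compared with the rest by Dixon's criterion. It picked out 11 values, whereas chance alone picks out about 1 in 20 groups.

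Of these, 8 came from male nicotine replicate 16, the exception among the members being Ifit3. It held 17.2 CPM of Irf7 (next library 5.76), 17.6 CPM of Oasl2 (next 9.09), 65.8 CPM of H2-K1 (next 29.6), 4.21 CPM of Isg15 (next 2.45), 19.6 CPM of Irf9 (next 15.3), 228 CPM of B2m (next 154), 11 CPM of Ifit1 (next 6.6) and 20.5 CPM of H2-D1 (next 13). The gap to the next library was 0.645 to 0.825 of the range of the group. These values come from 1 animal and are not independent of each other.

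The other 3 values came from other libraries. H2-D1 was 17.1 CPM in female nicotine replicate 6, against 12 CPM in the next library. In the female no-nicotine group H2-D1 was lowest in replicate 2, at 10.7 CPM against 11.9 CPM in the next one, within a narrow range. Irf7 was 6.96 CPM in male no-nicotine replicate 7, against 4.25 CPM in the next library.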

How the results depend on the processing

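The number of members called stayed at 0 under every alternative run in each comparison, except that DESeq2 called 1 (Oasl2) in males with nicotine against air. Of 2660 alternative values of 100 results, 2528 kept their direction and side of the threshold, and 43 changed sign. The called pathway genes, 2 in females with nicotine against air, became 1 with upper quartile normalization, 1 without a filter, 1 with only the 2 groups compared, and 0 to 2 when 1 library was left out. Without nicotine in females, 6 became 3 with only the 2 groups and 3 to 8 when 1 library was left out. Between the male exposures, 0 became 2 with DESeq2 and 0 to 1 (1 without nicotine replicate 19).

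In females the replicate number as a block left 0 members called in each comparison and 0 and 2 pathway genes against air with and without nicotine, and B2m between the exposures turned to -0.03. Deviations of same-numbered females correlated at -0.273 to 0.266 (4 of 14 pairs above 0.1), so the libraries share only a number. In males no paired analysis was possible because the groups share fewer than 2 numbers.

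With limma-voom, Oasl2 turned to 0.005 in females without nicotine, B2m to -0.032 between the female exposures, and Isg15 to -0.104 in males without nicotine. Leaving out 1 library gave ranges of log2 fold change that crossed 0 for small changes. They were B2m -0.031 to 0.129, Isg15 -0.137 to 0.016 and Oasl2 -0.148 to 0.009 in females with nicotine, and Irf9 -0.017 to 0.085 and Oasl2 -0.086 to 0.038 in females without. Between the female exposures they were B2m -0.093 to 0.067, H2-D1 -0.046 to 0.148, Ifit3 -0.044 to 0.211, Irf7 -0.014 to 0.186 and Oasl2 -0.126 to 0.032. In males without nicotine Isg15 gave -0.109 to 0.184. Between the male exposures they were B2m -0.024 to 0.205, H2-D1 -0.093 to 0.197, H2-K1 -0.073 to 0.437, Ifit3 -0.161 to 0.255 and Irf9 -0.061 to 0.067, each lowest without nicotine replicate 16. For the male minus female difference they were H2-D1 -0.262 to 0.091, H2-K1 -0.018 to 0.431, Ifit3 -0.064 to 0.381 and Irf9 -0.03 to 0.123 with nicotine, and B2m -0.013 to 0.095 and H2-K1 -0.015 to 0.237 without. Where no library is named, the cause was not tested. Genes near 2 CPM (Ifit3, Isg15) rested on few reads, at least 17 in a library.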

Other observations

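Female nicotine replicate 6 was the highest female library for 7 of the 9 members but for only 17 of 56 other interferon-stimulated genes tested, whereas male nicotine replicate 16 was the highest male library for 9 of 9 and 41 of 57. The list genes of MHC class II had a median log2 fold change of 0.26 in males with nicotine, with 8 of 9 positive, and of 0.24 with 6 of 9 positive without replicate 16.

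Between the exposures in females, the interferon-stimulated list and the MHC class I pathway list had medians of opposite sign. Of the former, 44 of 56 values were positive (median 0.059), and of the latter 5 of 26 (median -0.065). By edgeR 1 and 0 genes had an unadjusted p below 0.05 (8.36% of all genes did), and 0 were called (0% of all genes). The nicotine group held replicate 6, the highest female library for 17 of the 56. List values without that library are not reported here, so its part in the opposite signs stays open. With nicotine in males, 0 of the 4 interferon receptor genes were called by edgeR, as were 0% of all genes tested, so the count could not single them out. The log2 fold change was 0.085 for Ifnar1, 0.14 for Ifnar2, 0.062 for Ifngr1 and -0.053 for Ifngr2. Jak1, the kinase that both receptors use, was 163 ± 4.76 CPM in nicotine and 176 ± 4.6 CPM in air libraries (SD, n = 6 each), with a log2 fold change of -0.11 ± 0.034 (edgeR adjusted p = 0.133).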
